A study of Mus musculus with 8 samples.

Results

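The 9 genes described here encode the metallothioneins Mt1 and Mt2, the zinc-sensing transcription factor Mtf1, the zinc exporters Slc30a1, Slc30a5 and Slc30a7, and the zinc importers Slc39a1, Slc39a7 and Slc39a14. They were taken from a list of symbols and are 9 of the 23403 genes in the count table. The cells were Hepa-1c1c7 (Hepa-1), a mouse hepatoma line. For RNA-seq, 2 libraries came from cells given 25 µM Cr(VI) as CrK2O4 for 90 minutes and 2 from control cells, whose labels name no regimen. For FAIRE-seq, which recovers DNA that is poorly crosslinked to nucleosomes, there was 1 library each of cells given 25 µM Cr(VI) for 90 minutes, of their control, of cells kept through 20 passages in 0.5 µM Cr(VI), and of cells passaged as often without it. All cells were of this 1 line, and nothing states that the replicate libraries came from separate cultures, so the p-values measure the spread between these libraries, which may be technical.

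Metallothioneins are small cysteine-rich proteins that bind zinc, copper and cadmium. Their genes are turned on through metal response elements, short promoter sequences bound by MTF-1, the product of Mtf1, when zinc binds its zinc fingers. The same factor turns on Slc30a1, whose product ZnT1 sends zinc out of the cell. The products of Slc30a5 and Slc30a7 (ZnT5 and ZnT7) move zinc into the secretory pathway. The SLC39 (ZIP) proteins move zinc into the cytosol: that of Slc39a1 (ZIP1) across the plasma membrane, that of Slc39a7 (ZIP7) from the endoplasmic reticulum, and that of Slc39a14 (ZIP14), which also carries iron and manganese, into hepatocytes. Metallothionein genes in liver also answer to glucocorticoids, to inflammatory cytokines and to oxidants.

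The metal response elements are shown first, because they are the known link from zinc to these genes and were denser at Mt1 and Mt2 than at most promoters. The core was searched as TGCACNC and TGCGCNC on both strands of RefSeq promoters (mm10), each holding 250 bases before the annotated start and 50 after it. Mt2 (chr8:94172618-94173567, plus strand) had 4 matches, a number reached by 0.517% of all 32851 promoters. Its neighbor Mt1 (chr8:94178883-94180327, plus strand) had 3, against 1.97% of promoters with as many, and Slc30a1 (chr1:191906697-191913248, plus strand) had 2, against 7.11% with as many. Slc30a5 had 1 match, and Mtf1, Slc30a7, Slc39a1 and Slc39a7 had 0. A match was thus present in 4 of the 8 genes with a promoter in the table, against 25.7% of all promoters. The 250 bases before the Mt2 start (chr8:94172368-94172617) follow, with the capitals marking 3 matches to the metal response core and, ahead of the last of these, the stretch at base -79 where the AP-1 sequence TGACTCA and the antioxidant response element TGACNNNGC overlap.
Mt2, before the start: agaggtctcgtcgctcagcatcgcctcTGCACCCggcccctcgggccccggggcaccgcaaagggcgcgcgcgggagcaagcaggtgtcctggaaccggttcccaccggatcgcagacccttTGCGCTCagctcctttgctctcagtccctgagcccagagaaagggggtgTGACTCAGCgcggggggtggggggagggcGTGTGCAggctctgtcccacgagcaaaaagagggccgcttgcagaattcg
Both Mt2 and Mt1 held further matches past the annotated start. These are printed with the match of Mt1 before its start and both matches of Slc30a1, each with 10 bases on either side, the core in capitals, and the position of its first base counted from the start.
Mt2, base 5: aattcgggtcGTGCGCAggcccagggg
Mt2, base 59: gaaaaagggcGTGTGCAggcggcgggg
Mt2, base 78: cggcgggggcGCGTGCAtggtgccttc
Mt2, base 112: gcggagctttTGCGCTCgacccaatac
Mt1, base -23: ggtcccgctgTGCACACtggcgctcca
Mt1, base 3: cagggagctcTGCACTCcgcccgaaaa
Mt1, base 21: gcccgaaaagTGCGCTCggctctgcca
Mt1, base 85: accgcctgctGGGTGCAaaccctttgc
Mt1, base 99: gcaaacccttTGCGCCCggactcgtcc
Slc30a1, base -43: cgggggttccGAGTGCAaagcaaagtt
Slc30a1, base 31: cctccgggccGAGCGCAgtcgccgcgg
Several of these matches lie before a start that another annotation gives: GENCODE transcripts of Mt2 begin at base 47 or 243, and those of Mt1 begin at base -7, 123 or 153. For Mt1 and Slc30a1 the start used is that of the RefSeq promoter table, 94179089 and 191906781, which lies 206 and 84 bases inside the gene interval given above, so that bases counted as before the start are within it. With the 250 bases before the start alone, Mt2 had 3 matches, against 1.26% of promoters with as many, while Mt1 and Slc30a1 had 1 each, as many as in 21.4% of promoters. With TGCACNC as the only core, Mt2 and Mt1 had 2 matches each, against 1.58% of promoters with as many. Slc30a1 then had 1, against 12.6%, and Slc30a5 had 0. The promoters compared were not matched for base composition. In a window widened to 250 bases on both sides of the start, a choice made after seeing the data, Mt2 had 7 matches and Mt1 had 5, numbers reached by 0.0487% and 0.49% of promoters. AP-1 matches (TGACTCA or TGAGTCA) occurred in 5.2% of promoters and among these genes in Mt2, and antioxidant response matches, found in 12.4% of promoters, occurred in Mt2, Slc30a1, Slc30a5 and Slc39a1. A match is a description of letters and not a site of binding.

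**Figure D1:**
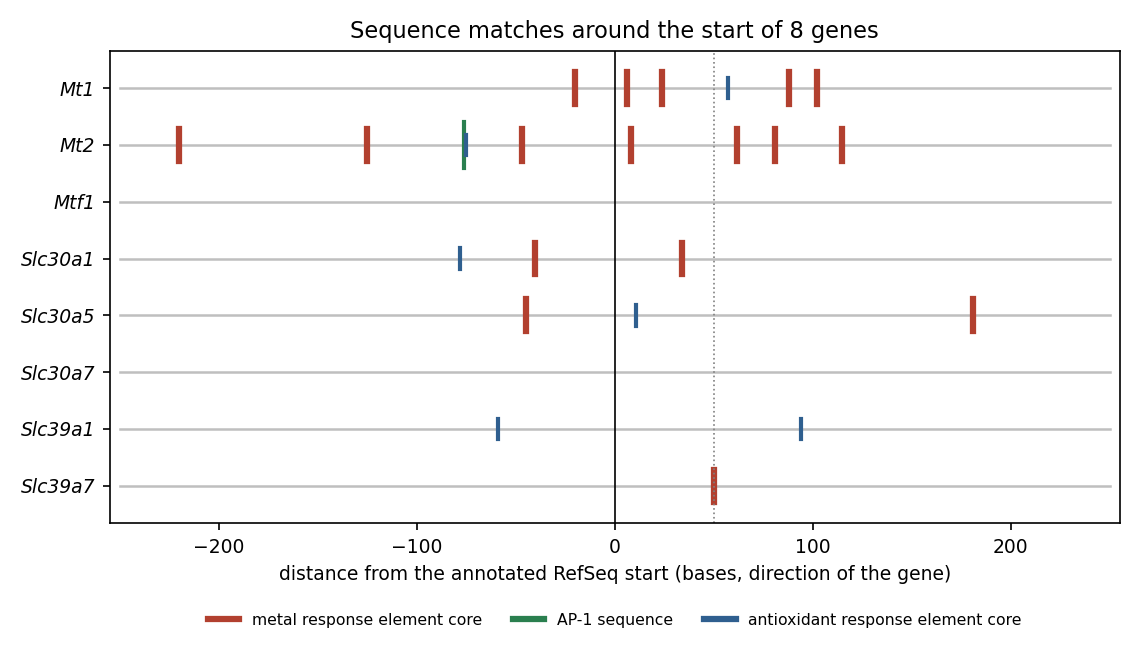
Positions of matches to the metal response, AP-1 and antioxidant response sequences (x axis, bases from the RefSeq start) in the 8 genes with a promoter in the reference table (y axis), from 250 bases before to 250 after the start, which is the solid line. The dotted line marks the end of the promoter window, 50 bases past the start. Matches to the metal response core crowd at Mt2, with 7, and Mt1, with 5.

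The 4 RNA-seq libraries held between 32319676 and 37696116 counts each, and 13619 genes had enough counts to be tested. The libraries of control cells were close to each other, with 3.55% of tested genes over 1.5-fold apart, while 31.0% were that far apart between the libraries of treated cells. Among hepatocyte and hepatoma markers, the control libraries held Alb at 905 and 948 CPM (counts scaled to a common library size, with TMM factors) and Afp at 149 and 151 CPM, whereas Apoa1 had 0 counts and Hnf4a stood at 0.230 and 0.256 CPM. The summed CPM of the 11 markers of this list was 7384 and 8705 in treated and 4175 and 4312 in control cells. Most of that difference was Alb, at 3667 and 3550 CPM in treated cells. Of the 10 tested markers of the list 2, Alb and Ttr, were higher by the test, where 1.78% of all tested genes were. Both treated libraries lay above both controls for 8 of the 10, where 32.2% of all tested genes did. Krt8 and Krt18 were among these at log2 fold changes of 0.28 each, while Afp (0.03) and Serpina1a (0.0037) overlapped with the controls. Of the 6 fibroblast markers, 1 of 4 tested, Dcn, rose, and their summed CPM was 1207 and 1373 against 655 and 665. Most of that sum was Dcn, at 959 and 998 CPM in treated and 436 and 443 CPM in control cells. Col1a1 was higher without a call (log2 fold change 0.54), Col3a1 was level (-0.01) and Pdgfra lay below both controls (-0.47). Col1a2 and Lum had too few counts to be tested. The 6 macrophage or blood markers summed to 114 and 107 CPM in treated and 119 and 122 CPM in control cells, with none of 4 tested past the threshold and the defining Ptprc at 3 counts or fewer. The 5 endothelial markers summed to at most 2.59 CPM in a library, with Pecam1 higher by the test and Cdh5 at 0 counts throughout. The part of these shifts in the values of the zinc genes was not tested, and in bulk RNA fewer cells of a type and less RNA per cell cannot be told apart.

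The comparison of cells treated with 25 µM Cr(VI) with control cells asked which genes differed in RNA after 90 minutes of exposure. Both metallothionein transcripts were lower in both treated libraries than in either control library, Mt2 by 3.20-fold and Mt1 by 2.09-fold on the group means, but neither difference passed the test over all genes. The remaining 7 genes differed by at most 1.29-fold between group means, and none of them passed either. Of the 9 genes, 0 were thus called by edgeR's quasi-likelihood test at an adjusted p under 0.05, a threshold that 4.63% of all tested genes passed, 1.78% as higher and 2.85% as lower in treated cells. At an unadjusted p under 0.05 there were 2, Mt1 and Mt2, against 30.7% of tested genes. DESeq2 and voom with sample weights, the latter chosen after seeing the data, each called 2, again Mt1 and Mt2, where they called 15.2% and 13.6% of all genes. The part of all genes that DESeq2 called lower in treated cells was 7.46%.

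Mt1, which encodes one of the major liver metallothioneins, stood at 71.0 and 129 CPM in treated and at 201 and 218 CPM in control cells. These were 2401 and 3741 reads against 6997 and 8513, so counting error was small beside the spread between libraries. The groups did not overlap, but the treated libraries were 1.82-fold apart, while the controls were 1.08-fold apart. In 15.1% of tested genes the treated libraries were farther apart than this. The group means were 100.1 ± 41.1 CPM (SD, n = 2) and 209.5 ± 11.7 CPM (SD, n = 2). The log2 fold change of treated over control was -1.07 with a standard error of 0.31, and edgeR's quasi-likelihood test gave an adjusted p of 0.115 (unadjusted p of 0.0225). DESeq2 put the difference at -1.04 with an adjusted p of 0.00818, and voom with sample weights at -1.14 with an adjusted p of 0.00701.

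Mt2, the neighboring gene whose protein binds metals in the same way, had lower RNA than its controls by a wider margin. Its level was 19.2 and 44.1 CPM in treated cells and 98.0 and 105 CPM in control cells, from 650, 1278, 3407 and 4096 reads. As with Mt1, treated replicate 1 was the lowest library and treated replicate 2 lay between it and the controls, 2.30-fold above it. Only 7.34% of tested genes had a wider gap between the treated libraries. The means of 31.7 ± 17.6 CPM (SD, n = 2) and 101.4 ± 4.78 CPM (SD, n = 2) gave a log2 fold change of -1.68 with a standard error of 0.42 and, by edgeR's quasi-likelihood test, an adjusted p of 0.0916. By DESeq2 the log2 fold change was -1.66 and the adjusted p 0.000167, and by voom with sample weights they were -1.83 and 0.00243.

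Which treated library was used set the size of the metallothionein difference but not its direction. Without treated replicate 1, the log2 fold change was -0.69 for Mt1 and -1.19 for Mt2, and without treated replicate 2 it was -1.56 and -2.40. In these fits the lone treated library is assumed to vary as the controls do, and they called 10995 and 9333 of all tested genes, beside 6 and 8 of the 9 genes described here. Without control replicate 1 the log2 fold change of Mt2 was -1.75 (edgeR's quasi-likelihood test, adjusted p 0.00288), and without control replicate 2 it was -1.65 (adjusted p 0.00717), while Mt1 stayed without a call at adjusted p of 0.103 and 0.166. The lone control library is then assumed to vary as the treated ones do, and the count over all genes went from 631 to 294 and 287.

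Per library, the pair of metallothionein genes moved in the same order. Their summed level was 90.2 and 173 CPM in treated and 299 and 323 CPM in control cells, the lowest again in treated replicate 1. The proportion between them was less even: Mt1 had 2.05 and 2.08 reads for each Mt2 read in the controls and 3.69 and 2.93 in treated cells, so the ratio was highest where both levels were lowest. That difference in ratio was not tested. Because the coding sequences of both genes are alike, reads that fit either could have been split between them in counting, and GENCODE places the antisense transcript Gm45774 over Mt2. The remaining mouse metallothionein genes gave no measurable signal, with Mt3 at 0 counts in every library and Mt4 at 1 count in treated replicate 2 and 0 elsewhere.

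**Figure D2:**
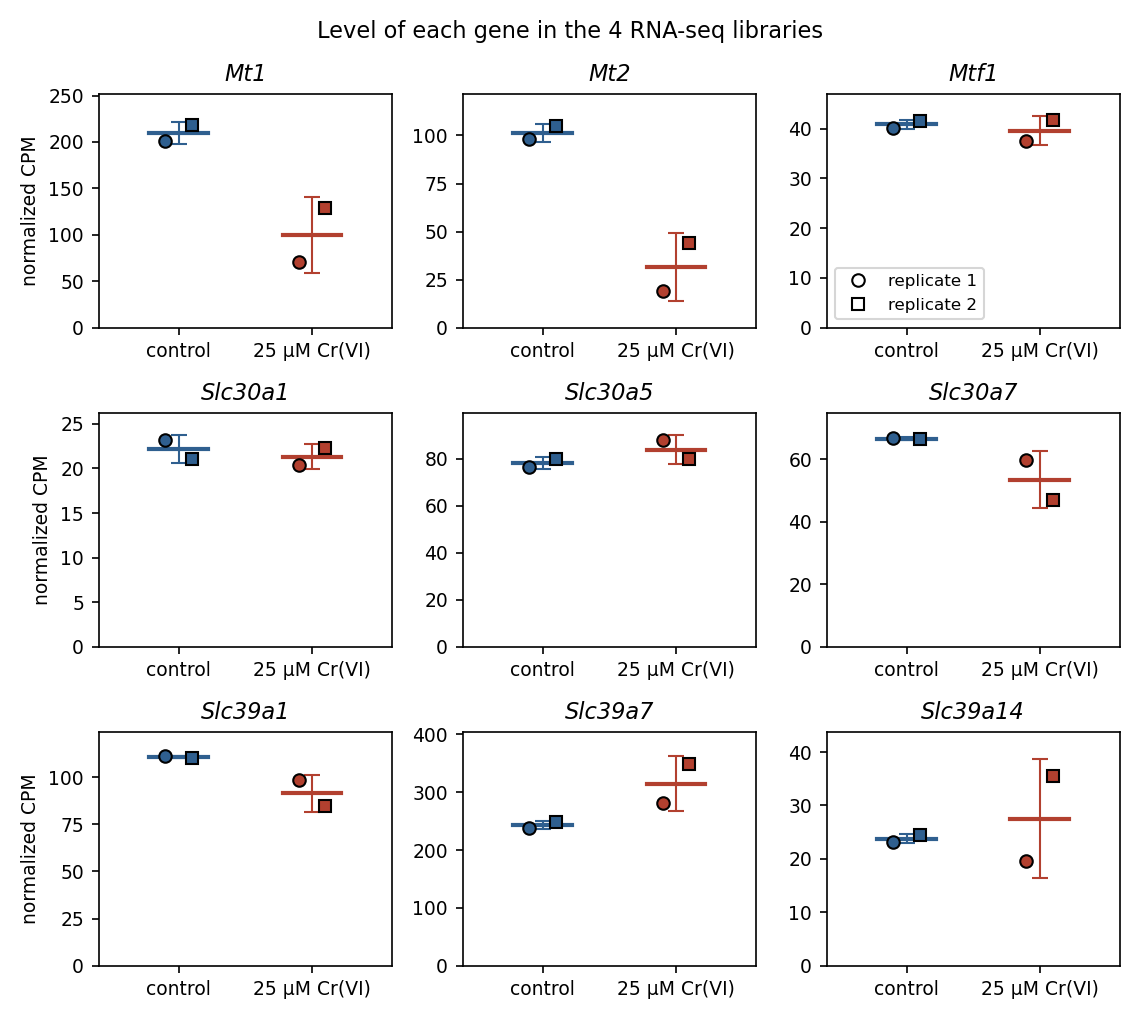
Level of each of the 9 genes in every RNA-seq library, as normalized CPM on a linear axis from 0 (one panel for each gene, each with its own scale), with circles for replicate 1, squares for replicate 2, horizontal lines for the group means and bars for the SD (n = 2). The treated points of Mt1 and Mt2 lie below both control points and are farther apart from each other, while those of Mtf1 and Slc30a1 overlap with the controls.

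Mtf1 encodes the factor that carries the zinc signal to the metallothionein promoters, and its own RNA was level across the libraries. It stood at 37.5 and 41.6 CPM in treated and 40.2 and 41.5 CPM in control cells, so treated replicate 1 was the lowest and treated replicate 2 the highest of the 4. The log2 fold change was -0.05 with a standard error of 0.12 (edgeR's quasi-likelihood test, adjusted p 0.819). RNA gives no measure of the zinc occupancy or nuclear location through which the MTF-1 protein is known to act. On the opposite strand 1110065P20Rik shares 316 exon bases with Mtf1, and since the strand used in counting is not given, reads of the pair may be mixed.

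Slc30a1 (ZnT1), the exporter that shares the metal response elements and the factor with the metallothioneins, was at nearly the same level in all libraries. It stood at 20.3 and 22.3 CPM in treated and 23.2 and 21.0 CPM in control cells, and the groups overlapped. The log2 fold change was -0.05 with a standard error of 0.14 (edgeR's quasi-likelihood test, adjusted p 0.823). The difference between Slc30a1 and the metallothioneins was not itself tested. A lncRNA on the opposite strand, 1700034H15Rik, shares 468 exon bases with Slc30a1. It had 96 and 57 reads in treated and 102 and 113 in control cells, beside 646 to 822 reads of Slc30a1 in a library.

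The exporters of the secretory pathway differed little. Slc30a5 (ZnT5) was at 88.1 and 79.6 CPM in treated and 76.4 and 79.7 CPM in control cells, which overlap, with a log2 fold change of 0.10 and a standard error of 0.11 (edgeR's quasi-likelihood test, adjusted p 0.569). Slc30a7 (ZnT7) was at 59.9 and 47.1 CPM in treated and at 66.8 and 66.3 CPM in control cells. Both treated libraries lay below the controls, treated replicate 2 the farthest, which is the reverse of the order of the metallothioneins. Its log2 fold change of -0.32 with a standard error of 0.15 did not pass (edgeR's quasi-likelihood test, adjusted p 0.242). Pseudogenes that GENCODE places on the opposite strand of Slc30a7, Gm6649 and Gm43106, could share reads with it.

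Among the importers, Slc39a1 (ZIP1) stood at 98.4 and 84.6 CPM in treated and 111 and 110 CPM in control cells, below both controls. The log2 fold change of -0.28 with a standard error of 0.12 did not pass (edgeR's quasi-likelihood test, adjusted p 0.212). Slc39a7 (ZIP7), which releases zinc from the endoplasmic reticulum, was the one gene of the 9 with both treated libraries above both controls. It stood at 282 and 348 CPM against 239 and 248 CPM, a log2 fold change of 0.37 with a standard error of 0.15 (edgeR's quasi-likelihood test, adjusted p 0.190). GENCODE lists a transcript on the same strand, Gm20427, that covers 1998 exon bases of Slc39a7. Slc39a14 (ZIP14), the importer that interleukin-6 induces in liver, was spread on either side of the controls, with 19.6 and 35.5 CPM in treated and 23.2 and 24.4 CPM in control cells. Its log2 fold change of 0.21 with a standard error of 0.31 (edgeR's quasi-likelihood test, adjusted p 0.674) was set by treated replicate 2, and without that library it was -0.28.

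The shares of the 9 genes were set against those of all genes. Both treated libraries were below both controls for 4 of the 9, namely Mt1, Mt2, Slc30a7 and Slc39a1, where 34.0% of all tested genes were, and above them for 1, where 32.2% were. The groups overlapped for the remaining 4, and over all genes they did not overlap in 66.3%. The median log2 fold change of the 9 genes was -0.05, beside -0.0047 over all tested genes.

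**Figure D3:**
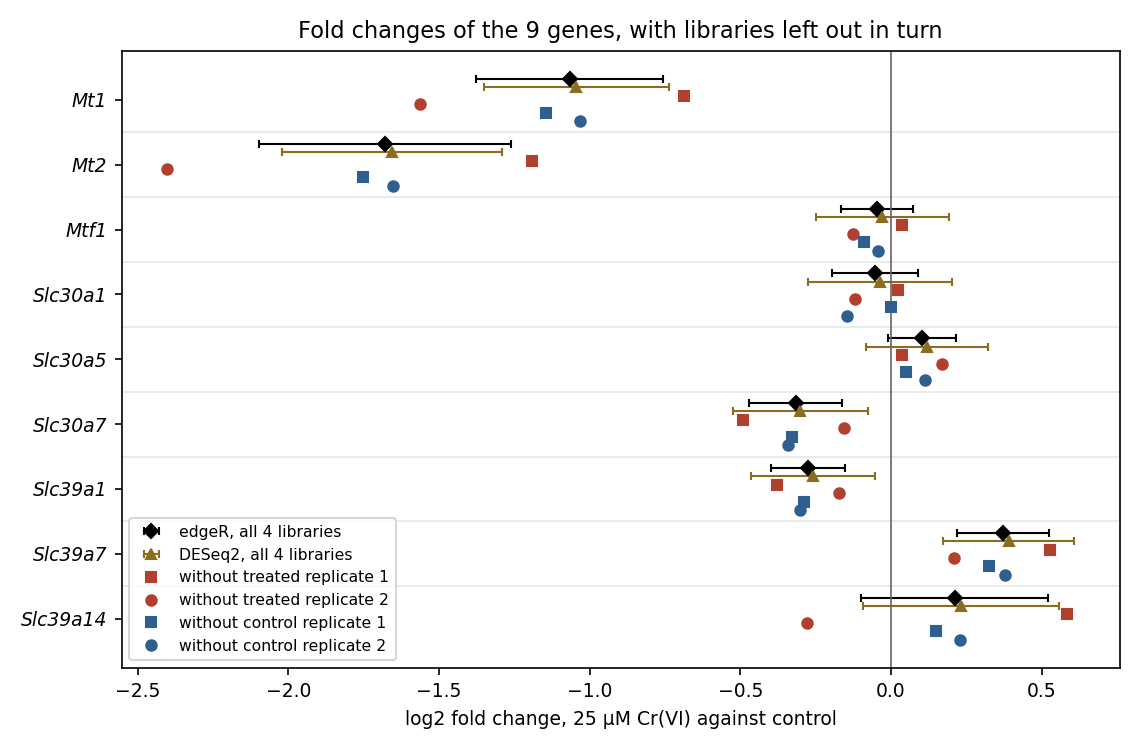
Log2 fold change of treated over control (x axis) for the 9 genes (rows), from edgeR (diamonds) and DESeq2 (triangles) over all 4 libraries with bars of 1 standard error, and from edgeR with 1 library left out (squares and circles). Mt2 at -1.68 and Mt1 at -1.07 lie farthest from 0 and stay below 0 with any library left out, whereas the values of Slc39a14 run from -0.28 to 0.59.

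Ordered by level per length (RPKM, the CPM for each kilobase of curated RefSeq exon), the metallothioneins led in control cells, with group means of 387 for Mt1 and 182 for Mt2. Slc39a7 followed at 102, Slc39a1 at 47.2 and Slc30a5 at 24.6, and the lowest levels were those of Slc30a7 (7.38), Mtf1 (5.36), Slc39a14 (4.57) and Slc30a1 (4.23). No neighbors in this order had overlapping ranges over the control libraries. In treated cells Mt1 was still first at 185 RPKM, but its range of 131 to 238 overlapped with that of Slc39a7, now the next at 132 RPKM. Mt2 came next at 57.0 RPKM with a range of 34.6 to 79.4 that took in the 39.0 RPKM of Slc39a1. Further down, Slc30a7, Slc39a14 and Mtf1 overlapped with their neighbors at 5.93, 5.29 and 5.19 RPKM.

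Likeness of profile was measured as the Euclidean distance between centered log2 CPM over the 4 libraries, among the 7998 genes whose mean was 4 log2 CPM or more, and is given without a test because the libraries are few. The nearest profile to Mt1 was that of Lcn2, the siderophore-binding lipocalin, at a distance of 0.0275, with 39.8 and 72.3 CPM in treated and 115 and 123 CPM in control cells. It was followed by 4930506C21Rik at 0.127 and by Mpc1, a subunit of the mitochondrial pyruvate carrier, at 0.132. Mt2 was at rank 206 from Mt1, at 0.711. Nearest to Mt2 were the actin-capping gene Capg at 0.317, with 34.0 and 58.1 CPM in treated and 146 and 147 CPM in control cells, and the cytokine genes Il24 at 0.423 and Cxcl1 at 0.426. The flat profile of Mtf1 was nearest to those of Chrnb1, Tubb4b and Thoc3, and that of Slc30a1 to those of Cux1, Smim11 and Dhx35.

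The other genes of zinc transport were mostly without a call. Of the 7 other exporters, 3 had enough counts to be tested, and 0 rose and 0 fell by edgeR's quasi-likelihood test (median log2 fold change 0.16). DESeq2, which called 15.2% of all tested genes, called Slc30a4, an exporter of intracellular vesicles. Slc30a4 stood at 319 and 250 CPM in treated and 194 and 187 CPM in control cells. The log2 fold change came to 0.58 (edgeR's quasi-likelihood test, adjusted p 0.109), and that of Slc30a9 was -0.20 (adjusted p 0.445). Of the 11 other importers 10 were tested, and 1 rose and 0 fell by edgeR, where 1.78% and 2.85% of all tested genes did. The median log2 fold change was -0.14.

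The importer gene that rose, Slc39a2 (ZIP2), was scarce, with 19 and 18 reads in treated and 1 and 1 in control cells. It had enough counts to be tested only through the treated libraries, where it is high, so only a rise could be called. Summed over libraries, these 37 and 2 reads gave a level 21.8-fold higher in treated cells, with a 95% counting interval of 5.61 to 186 and, by edgeR's quasi-likelihood test, an adjusted p of 0.0327. That call was lost without control replicate 1 (adjusted p 0.192) and without control replicate 2 (adjusted p 0.214). Slc39a8 (ZIP8), named after its values were seen, stood at 14.3 and 11.7 CPM in treated and 26.2 and 26.4 CPM in control cells, with treated libraries that were close to each other. Its log2 fold change of -1.01 had a standard error of 0.16 and just missed the threshold (edgeR's quasi-likelihood test, adjusted p 0.0510), while DESeq2 gave it an adjusted p of 0.00118.

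Among the 5 targets of MTF-1 outside these families, all tested, 1 rose and 0 fell, beside 1.78% and 2.85% of all tested genes, with a median log2 fold change of 0.64. Csrp1, which encodes a LIM-domain protein of the cytoskeleton, rose from 129 and 132 CPM to 229 and 229 CPM, a log2 fold change of 0.81 with a standard error of 0.10 (edgeR's quasi-likelihood test, adjusted p 0.0391). Without normalization beyond library size its adjusted p was 0.0604, and without control replicate 1 or 2 it was 0.495 or 0.467. Of the 5, 0 lay below the controls in both treated libraries and 4 lay above, beside 34.0% and 32.2% of all tested genes. The hepcidin gene Hamp, among those above, had enough counts to be tested only through the treated libraries. The copper-handling genes, 10 of 10 tested, had 0 rises and 0 falls by edgeR's quasi-likelihood test and a median of -0.0035. DESeq2 called 2 of the 10, where it called 15.2% of all tested genes. These were Sod1 as higher (DESeq2, adjusted p 0.0403) and Slc31a2 as lower (adjusted p 0.0453). The low-affinity copper transporter gene Slc31a2 had the largest difference in that list, 23.7 and 12.6 CPM in treated against 34.4 and 33.0 CPM in control cells (log2 fold change -0.89, adjusted p 0.159 by edgeR's quasi-likelihood test and 0.0432 by voom with sample weights). The copper ATPase gene Atp7b was next at a log2 fold change of -0.80 (adjusted p 0.152).

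For the 9 oxidant and protein stress genes that metals induce, none passed edgeR's quasi-likelihood test and the median log2 fold change was 0.46, but the treated libraries differed widely. Hmox1, the gene of heme oxygenase, stood at 49.9 CPM in treated replicate 1 and 316 CPM in treated replicate 2, beside 52.1 and 55.2 CPM in control cells. The first treated library was thus below the controls and the second well above them (log2 fold change 1.77, edgeR's quasi-likelihood test, adjusted p 0.245). Txnrd1, which encodes thioredoxin reductase, was above the controls in both treated libraries, with 460 and 850 CPM against 377 and 373 CPM, and was also highest in treated replicate 2 (edgeR's quasi-likelihood test, adjusted p 0.183). DESeq2 called 1 gene of this list, Txnrd1 (adjusted p 0.0463), where it called 15.2% of all tested genes. Txnrd1 was also called by voom with sample weights (adjusted p 0.0378). Hmox1 passed edgeR's test with control replicate 1 or control replicate 2 left out (adjusted p 0.0447 and 0.0394). Treated replicate 1, the library with the lower Hmox1, was that with the lower Mt1 and Mt2.

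**Figure D4:**
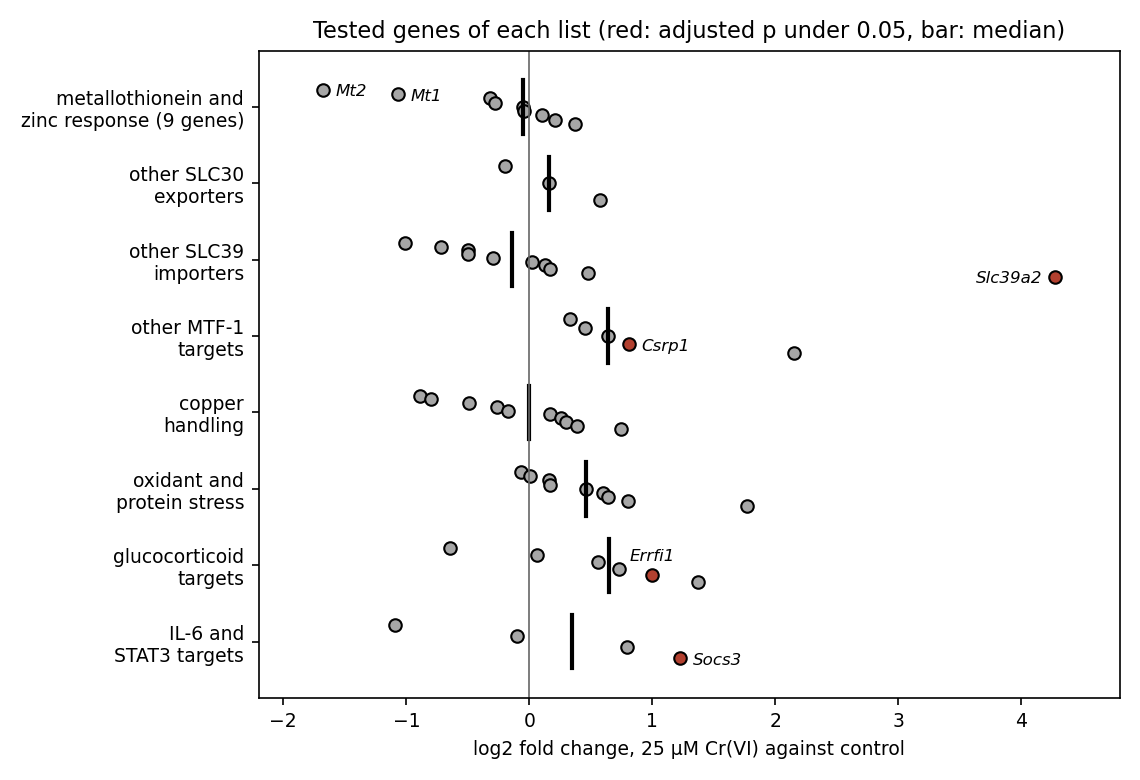
Log2 fold change of treated over control (x axis) for the tested genes of each list (rows), with one point for each gene, red where edgeR's adjusted p was under 0.05 and gray otherwise, and a vertical bar at the median of the list. Slc39a2, Csrp1, Errfi1 and Socs3 are the points past the threshold.

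FAIRE-seq asked where chromatin opened under each regimen. Peaks came as lists of regions open in 1 treated library against its control, 2945 for 25 µM and 860 for 0.5 µM, with the score of the MACS peak caller (10 times the negative log10 of its p) but without reads, which leaves their depth unknown. With 1 library per condition the peaks have no replicate check. Each list holds slightly fewer regions than the study counted as opened, by as many as the paper gives as common to both regimens. Regions opened under both regimens may thus be missing from the lists, and the missing regions were not analysed here. Regions that closed under Cr(VI), which the paper also counted, are not in these lists, so closing at these genes could not be seen. In the 25 µM list, 1 of the 9 genes, Slc39a14, had a peak within 10 kb of the gene, where 11.7% of tested genes did. In the 0.5 µM list 0 of the 9 did, where 3.77% did, and 0 had one within 50 kb, where 7.74% did. No peak of either list lay at the Mt1 and Mt2 promoters: the nearest at 25 µM, an 83-base region at chr8:94148206-94148288 with a score of 56.0, was 24330 bases from Mt2 and 30595 bases from Mt1, and the nearest at 0.5 µM was 4441963 bases from Mt1.

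The Slc39a14 peak (chr14:70336672-70336837, mm10) lay in an intron, 10016 bases from the nearest annotated start of the gene (chr14:70303467-70351452, minus strand), and its score of 66.6 was above the list's median of 57.2. Its 166 bases hold none of the motifs searched, which were found in 8.32% (metal response), 13.6% (AP-1) and 7.95% (antioxidant response) of stretches of that width at the centers of 25 µM peaks. The next nearest peak, at chr1:191894544-191894668, was 12029 bases from Slc30a1 and lay in an exon of the lncRNA 1700034H15Rik, with a score of 56.2. A link of this peak to Slc30a1 was not tested. That region holds the AP-1 sequence TGAGTCA, as did 11.2% of peak centers of its width. Both are shown on the plus strand, as the regions of opened chromatin nearest to these genes, with the AP-1 match in capitals.
Slc39a14 intron: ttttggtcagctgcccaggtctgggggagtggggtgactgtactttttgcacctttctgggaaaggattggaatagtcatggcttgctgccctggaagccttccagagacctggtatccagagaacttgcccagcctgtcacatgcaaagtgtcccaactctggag
Slc30a1, upstream: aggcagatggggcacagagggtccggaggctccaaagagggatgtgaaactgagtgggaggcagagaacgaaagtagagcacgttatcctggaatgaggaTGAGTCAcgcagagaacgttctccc
Neither gene differed in RNA beyond the spread of its libraries, as given above.

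For the other genes the peaks lay farther off. At 25 µM the nearest was 17877 bases from Slc30a5 (chr13:100802645-100833480), 75067 from Slc39a1 (chr3:90248190-90253613), 86296 from Slc39a7 (chr17:34028266-34031690), 133179 from Mtf1 (chr4:124802549-124849800) and 179129 from Slc30a7 (chr3:115938973-116007414). Within 50 kb there were 5 of the 9 genes, Mt1, Mt2, Slc30a1, Slc30a5 and Slc39a14, against 25.4% of tested genes, but Mt1 and Mt2 are neighbors that count the same peak. At 0.5 µM the closest to any of the genes was 87306 bases from Slc39a7, at chr17:34118996-34119718 in Brd2, with a score of 96.4. The 25 µM peak nearest to Slc39a7 also lay in Brd2. Other distances in this list ran from 100780 bases for Slc30a7 to 4448723 bases for Mt2.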

How the data were processed

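RNA-seq was measured in 4 and FAIRE-seq in 4 libraries. The read counts per Entrez gene are used as deposited: the authors aligned the reads to mm10 with TopHat and left the counts unnormalized. The counting tool, its annotation and the use of strand are not given in the sources used here. For FAIRE-seq, the authors aligned reads with BWA and ran MACS with its defaults, which gave the deposited peak score. The submitters' processing notes also name CASAVA 1.8.

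From the counts, CPM (TMM factors) and RPKM were computed here. Genes that passed filterByExpr entered edgeR's quasi-likelihood test, two-sided and without a block, with Benjamini-Hochberg adjustment over all 13619 and a threshold of 0.05, and the standard error is the absolute log2 fold change divided by the square root of F. Depth is given as total counts, and the counting intervals of Slc39a2 and Hamp cover counting error only. Of 23403 gene identifiers 23305 matched a symbol. Alternatives were a replicate block, no normalization, upper-quartile factors, no filter, DESeq2, voom with sample weights (added after seeing the data), each library left out, other peak windows and scores, and other motif windows. Sequences and promoters are RefSeq's for GRCm38.p6 (mm10), and 8 of the 9 genes matched a promoter. The edgeR fit was tested on simulated counts with the same spread in both groups. These data differ in that respect, so the simulation does not show how the test behaves with unequal spread. Protein sequences and RNA-seq of cells at 0.5 µM were not used here.

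The 9 genes and all lists were chosen with earlier results of these data known. Named from each list are the genes past the threshold or else those with the 2 largest log2 fold changes, from the profiles the 3 nearest genes, and from each peak list the peak nearest to each gene. Other names are given as picked after seeing their values. Fits were made with edgeR 4.0.16, DESeq2 1.42.0 and limma 3.58.1 in R 4.3.3, and tables and plots with pandas 2.3.3, numpy 2.4.6 and matplotlib 3.10.9 in Python 3.11.15.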

Additional observations from a re-analysis of the deposited data

How the results depend on the processing

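The labels give no pairing of the libraries beyond the replicate number. The deviations of same-numbered libraries from their group means correlated at 0.0824. With 2 libraries per group this cannot tell whether they were prepared as pairs. A replicate block leaves less replication, so its p-values rest mostly on the spread shared over genes. The standard errors of the 9 genes were then alike, from 0.207 to 0.264. With this block the count of changed genes moved from 631 to 2969. That of the 9 genes moved from 0 to 2 (edgeR, Mt1 -1.13, adjusted p 8.26e-06, and Mt2 -1.79, adjusted p 1.76e-13). That of the pathway lists moved from 4 to 14. DESeq2 gave 2073, 2 and 12, with Mt1 at -1.04 and Mt2 at -1.66, and voom with sample weights 1853 and 2, with -1.14 and -1.83. No other tool or scaling called any of the 9 genes. Without normalization the median of the 9 genes was -0.17 (that of all genes was then -0.11) and Slc30a5 was at -0.0048.

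Over the fits that left out 1 library, the changed genes ranged from 287 to 10995, the 9 genes called from 1 to 8, the pathway genes from 1 to 39 and the median of the 9 from -0.15 to 0.024. The log2 fold changes ranged from -1.56 to -0.69 for Mt1, -2.40 to -1.19 for Mt2, -0.13 to 0.036 for Mtf1, -0.14 to 0.024 for Slc30a1, 0.037 to 0.17 for Slc30a5, -0.49 to -0.15 for Slc30a7, -0.38 to -0.17 for Slc39a1, 0.21 to 0.53 for Slc39a7 and -0.28 to 0.59 for Slc39a14. Signs turned for Mtf1 and Slc30a1 without treated replicate 1 and for Slc39a14 without treated replicate 2. The causes were not tested. Of the 9 genes, 5 had a peak at 25 µM within 50 kb, against 25.4% of tested genes. At scores of at least 100 there were 0, where 0.118% of tested genes had such a peak within 10 kb.

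Limits are the 2 libraries per group, the gap between the treated libraries and the unstated regimen of the RNA-seq controls. The peak lists are further limited, as they come without replicates, depth or closed regions.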

Other observations

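Lists of genes answering to the other known inducers of metallothionein, glucocorticoids and interleukin-6, are described here without a bearing on cause. Of 7 glucocorticoid targets 6 were tested, and by edgeR's quasi-likelihood test 1 rose and 0 fell, beside 1.78% and 2.85% of all tested genes. The median log2 fold change was 0.64. DESeq2 called 3 as higher, Fkbp5, Per1 and Errfi1, where it called 1057 of all 13619 tested genes as higher. Of the other targets tested, Klf9 was higher without a call by edgeR or DESeq2 (log2 fold change 0.56) and Sgk1 was level (0.06). Tsc22d3 lay below both controls in both treated libraries (-0.65), also without a call by edgeR or DESeq2. Errfi1, which encodes a feedback inhibitor of the epidermal growth factor receptor, rose from 86.4 and 87.2 CPM to 160 and 187 CPM, a log2 fold change of 1.00 with a standard error of 0.13 (edgeR's quasi-likelihood test, adjusted p 0.0378; 0.260 and 0.247 without control replicate 1 or 2). Of 6 targets of interleukin-6 and STAT3, 4 were tested, and by the same test 1 rose and 0 fell, with a median of 0.35. DESeq2 called Socs3 as higher and Lcn2 as lower, where it called 15.2% of all tested genes. Socs3, the feedback inhibitor of cytokine signaling, rose from 35.0 and 37.0 CPM to 73.7 and 94.9 CPM, a log2 fold change of 1.23 with a standard error of 0.16 (edgeR's quasi-likelihood test, adjusted p 0.0393; 0.116 and 0.0860 without control replicate 1 or 2). Lcn2, in the same list and nearest in profile to Mt1, had a log2 fold change of -1.09 (edgeR's quasi-likelihood test, adjusted p 0.109). The acute-phase genes Saa1 and Saa2 had too few counts to be tested. Hamp, the hepcidin gene, had 10 and 17 reads in treated and 5 and 2 in control cells. Summed over libraries, these gave a level 4.54-fold higher in treated cells, with a 95% counting interval of 1.93 to 12.3. That interval leaves out the spread between libraries, and edgeR's quasi-likelihood test did not call the gene (adjusted p 0.129). Hamp had enough counts to be tested only through the treated libraries, where it is high, so only a rise could be called. It was named after its values were seen, as was Lcn2.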
